A study of Mus musculus with 6 samples.

Results

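The heat shock proteins and chaperones described here are 10 genes, Hspa1a, Hspa1b, Hspa5, Hspa8, Hsp90aa1, Hsp90ab1, Hsph1, Dnajb1, Hspb1 and Hspd1. They were found by matching Ensembl gene identifiers to these symbols, and 10 of 10 were present among the 21006 identifiers measured. Levels are given in FPKM, fragments per kilobase of exon scaled to the depth of the library, in which genes of different lengths can be compared.

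RNA was taken from the prefrontal cortex of male C57BL/6 wild-type mice with an age label of 18 months, although the sample titles carry the tag 17M. In the PND group (postoperative neurocognitive disorder model, n = 3) the mice had isoflurane anesthesia plus exploratory laparotomy, in which the abdomen is opened and inspected. In the CON group (n = 3) they had neither. Mice of both groups went through the open field test, fear conditioning and the Barnes maze, were then put under deep isoflurane anesthesia and were perfused with saline. Isoflurane at the time of tissue collection was therefore shared by CON and PND. The paper places the Barnes maze some days after the operation, and the tissue collection shortly after its last test. An early response to anesthesia and operation that was over by then would not be seen in these samples. Each mouse gave 1 library. Tissue was bulk cortex, in which fewer cells of a type and less RNA per cell cannot be told apart.

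Chaperones bind unfolded or partly folded proteins and help them to reach or keep their shape. Some, such as the cognate HSP70 and HSP90 proteins, are made at all times, and neurons hold large amounts of them. Others, such as the inducible HSP70 proteins, are made mainly after heat, oxidative or other protein-damaging stress, when heat shock factor 1 binds repeated GAA units, called heat shock elements, in front of their genes. The endoplasmic reticulum and the mitochondria have chaperones of their own, and the endoplasmic reticulum has its own stress pathway. The question of the comparison was which mRNAs differed in the prefrontal cortex some days after anesthesia and operation.

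The estimated effective depth was 7180000 to 9384000 fragments per library. The 13 mitochondrially encoded genes took 30.4% to 38.8% of the FPKM. Markers of cortical excitatory neurons were present in all 6 libraries, with a summed level of 193 to 234 FPKM over 5 genes in PND and 182 to 300 FPKM in CON, and none of these 5 was at 0. Markers of choroid plexus, a tissue that lies outside the cortex, summed to 2.20 to 2.82 FPKM in PND and 1.15 to 2.15 FPKM in CON, which did not overlap, and 3 of these 5 markers were at 0 in at least 1 library.

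The 10 genes spanned a wide range of levels. Hsp90ab1 stood at the top with a mean of 150.8 FPKM over the 6 mice. It was followed by Hsp90aa1 at 120.3 FPKM, Hspa8 at 113.5 FPKM, Hspd1 at 74.6 FPKM and Hsph1 at 31.4 FPKM. Lower levels were found for Hspa5 (15.3 FPKM), Dnajb1 (9.36 FPKM), Hspa1a (0.937 FPKM), Hspa1b (0.642 FPKM) and Hspb1 (0.201 FPKM). Between neighbours in this order the ranges over the 6 mice overlapped for 3 pairs. Hsp90aa1 was above Hspa8 in 4 of 6 mice, Hspa1a was above Hspa1b in 3 of 6, and Hspa5 was above Dnajb1 in 6 of 6 although their ranges overlapped. The 5 abundant genes thus included Hsp90aa1, the inducible form of cytosolic HSP90, besides chaperones made at all times, and the inducible Hspa1a, Hspa1b and Hspb1 were the lowest of the 10.

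**Figure D1:**
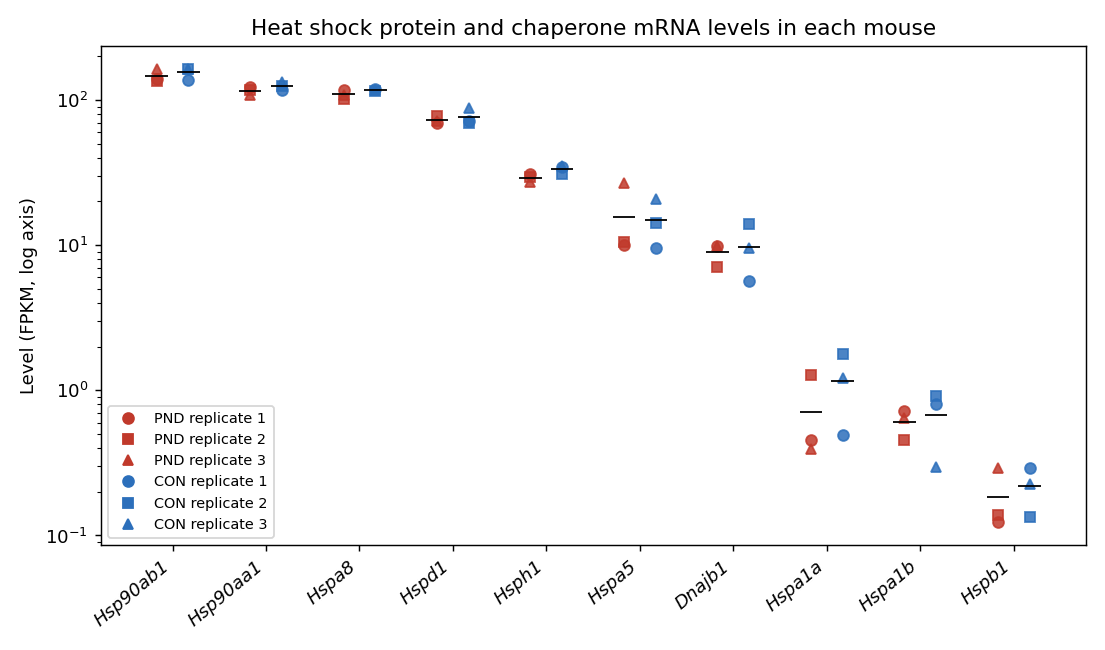
Level of each gene in each mouse, in FPKM on a log axis, with PND in red, CON in blue, replicate numbers by marker shape and the group mean as a bar. Hsp90ab1, Hsp90aa1 and Hspa8 lie above 100 FPKM in every mouse, and the PND and CON points overlap for each of the 10 genes.

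None of the 10 genes differed between PND and CON beyond the spread between mice. With limma on log2(FPKM + 0.1) over 18185 tested genes, 0 of 10 had an unadjusted p below 0.05, against 569 genes (3.13%) of all tested. The unadjusted p of the 10 genes ran from 0.105 for Hsph1 to 0.985 for Hspa5, and their adjusted p was 0.9999 each. The cut-off of the study, a change above 2-fold with an unadjusted p below 0.05, was passed by 0 of 10, against 241 genes (1.33%). All 3 mice of one group lay above all 3 of the other for 0 of 10 genes, against 1393 genes (7.66%). Across all genes, 2 had an adjusted p below 0.05. Since no label says more of the mice than their group and number, these p-values measure the spread between 3 and 3 libraries.

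The fitted differences leaned one way. Hspb1 is left out here, since it rested on too few fragments to give a fold. For the other 9 genes the log2 fold change, PND minus CON, was below 0 in 9 of 9, against 8656 genes (47.6%) of all tested, with a median of -0.09 against 0.01 over all genes. These directions carry no test, and they depended on single mice, since 6 to 9 of the 9 were below 0 when each mouse was left out in turn. For Hspa5 the mean FPKM was in fact higher in PND.

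Hspa8 encodes the cognate HSP70 protein HSC70, which folds new proteins and strips clathrin from synaptic vesicles. It lies at chr9:40800984-40810087 on the plus strand of GRCm38 (ENSMUSG00000015656). Its level was 116.8, 101.9 and 109.1 FPKM in PND replicates 1 to 3 and 119.9, 115.4 and 117.6 FPKM in CON replicates 1 to 3. PND replicates 2 and 3 were the lowest, and PND replicate 1 lay within the CON values. The means were 109 ± 7.47 FPKM (SD, n = 3) in PND and 118 ± 2.28 FPKM (SD, n = 3) in CON, and the log2 fold change was -0.11 (SE 0.09). The 95% interval reached from 0.798-fold to 1.08-fold, so that a change as large as the 2-fold of the study's cut-off lay outside it. Hspa8 had the narrowest range of the 10 genes, with the highest mouse 1.18 times the lowest. Of the 100-base windows of its longest transcript, 32.1% also occur in transcripts of 8 other genes, and its exons overlap 3 small nucleolar RNA genes on the same strand, so that some fragments may have been counted elsewhere.

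Hspa1a and Hspa1b encode the stress-inducible HSP70 proteins. The genes lie close together at chr17:34969190-34972156 (ENSMUSG00000091971) and chr17:34956436-34959238 (ENSMUSG00000090877), both on the minus strand of GRCm38. They are close copies that share long identical stretches, also in the 250 bases in front of their RefSeq starts, which are printed because they show how alike the upstream sequences are and where the heat shock element lies. The window of Hspa1a is chr17:34972157-34972406 and that of Hspa1b is chr17:34959239-34959488, both read on the minus strand, 5′ to 3′. Capitals mark a head-to-head pair of heat shock units, GAANNTTC.
Hspa1a: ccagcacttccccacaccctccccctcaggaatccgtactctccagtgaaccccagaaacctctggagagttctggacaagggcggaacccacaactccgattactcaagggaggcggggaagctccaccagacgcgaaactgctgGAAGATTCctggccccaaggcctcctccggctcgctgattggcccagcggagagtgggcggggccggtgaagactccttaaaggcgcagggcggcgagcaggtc
Hspa1b: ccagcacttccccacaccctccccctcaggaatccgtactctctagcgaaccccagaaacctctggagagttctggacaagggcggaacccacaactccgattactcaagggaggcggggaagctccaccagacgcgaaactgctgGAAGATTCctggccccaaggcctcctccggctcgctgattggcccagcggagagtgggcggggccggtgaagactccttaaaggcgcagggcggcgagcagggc

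The windows share 247 of 250 bases (98.8%) and differ at C44T, T47C and T249G, where the first letter is the base of Hspa1a, the number is the position counted from 1 at the 5′ end of the window, and the last letter is the base of Hspa1b. In both, the capitals lie 97 to 104 bases before the start. GAANNTTC was found on either strand in 2196 of 32817 upstream windows of the same length (6.69%), and either 2-unit form, GAANNTTC or TTCNNGAA, in 4212 (12.8%). A match describes letters and does not show that a factor was bound in these mice.

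The level of Hspa1a was 0.457, 1.28 and 0.395 FPKM in PND replicates 1 to 3 and 0.495, 1.78 and 1.22 FPKM in CON replicates 1 to 3. Each group held high and low mice, and the groups overlapped. Hspa1a had a log2 fold change of -0.65 (SE 0.55), with a 95% interval from 0.261-fold to 1.55-fold. Hspa1b stood at 0.726, 0.451 and 0.646 FPKM in PND and 0.809, 0.919 and 0.298 FPKM in CON, and its lowest and highest mice were both CON. For Hspa1b the log2 fold change came to -0.04 (SE 0.42), with a 95% interval from 0.490-fold to 1.93-fold. This interval passes a 2-fold decrease and comes close to a 2-fold increase.

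These levels rest on few fragments. Hspa1a had an estimated 12, 30 and 11 fragments in PND and 11, 43 and 26 in CON. Hspa1b had 18, 10 and 17 in PND and 17, 21 and 6 in CON. An exact 95% Poisson interval was 5.49 to 19.7 fragments for a count of 11 and 31.1 to 57.9 fragments for a count of 43. Such intervals cover counting error only, and not how fragments were divided between the copies. The share of Hspa1a in the FPKM of the pair was 38.6%, 73.9% and 37.9% in PND and 37.9%, 65.9% and 80.4% in CON, so that 3 mice lay at 37.9% to 38.6% and the other 3 at 65.9% or above, with both groups on either side. How fragments common to both genes were divided is not given in the sources used here. Of the 100-base windows of the longest transcript, 56.5% for Hspa1a and 49.9% for Hspa1b also occur in transcripts of other genes, among them each other and Hspa1l, and Hspa1a also overlaps Gm20481 on the opposite strand.

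**Figure D2:**
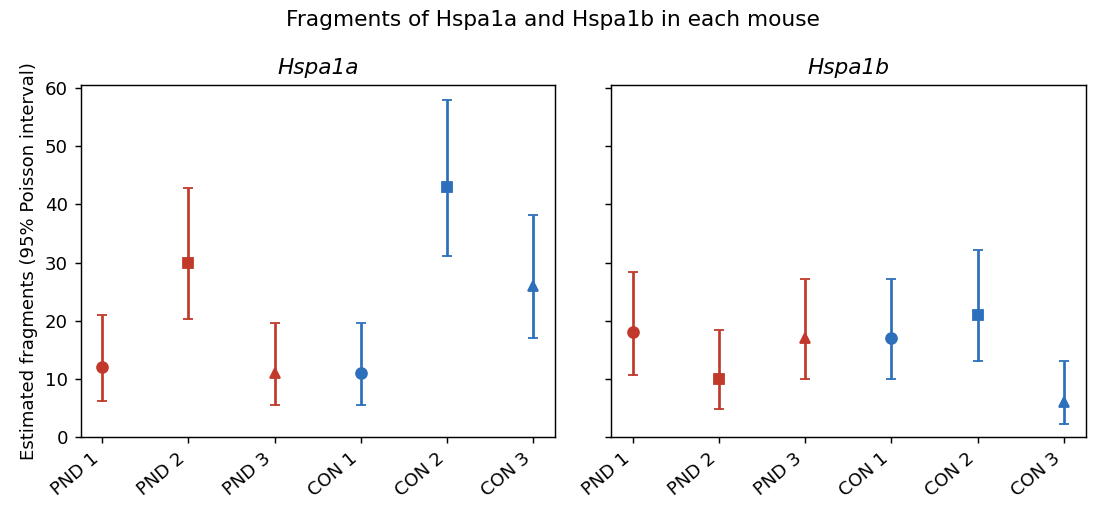
Estimated fragments of Hspa1a (left) and Hspa1b (right) in each mouse, with exact 95% Poisson intervals that cover counting error and not the division of fragments between the copies, PND in red and CON in blue. Hspa1a runs from 11 fragments in PND replicate 3 and CON replicate 1 to 43 in CON replicate 2, and Hspa1b from 6 to 21.

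The sum of Hspa1a and Hspa1b depends less on how fragments were divided between these genes, although not fully, since their exon lengths differ (2967 and 2803 bases) and other genes share part of their sequence. It was 1.18, 1.73 and 1.04 FPKM in PND and 1.30, 2.70 and 1.52 FPKM in CON. The means were 1.32 ± 0.364 FPKM (SD, n = 3) in PND and 1.84 ± 0.751 FPKM (SD, n = 3) in CON. The log2 fold change of the sum was -0.41, with p = 0.4 by a two-sided exact permutation test over the 20 splits of the mice, in which the smallest possible p is 0.1. CON replicate 2 was the highest mouse, and without it the value was -0.12. The cognate Hspa8 exceeded this sum 42.8 to 104.8 times.

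Hspa5 encodes BiP, the HSP70 protein of the endoplasmic reticulum and a standard readout of the unfolded protein response. It lies at chr2:34771970-34777547 on the plus strand (ENSMUSG00000026864). An ER stress response element, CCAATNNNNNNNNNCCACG, was found in its upstream window and in only 37 of 32817 windows (0.113%), on either strand, and is shown in capitals at chr2:34772019-34772048, plus strand, 47 to 65 bases before the RefSeq start and within an Hspa5 exon of GENCODE.
Hspa5: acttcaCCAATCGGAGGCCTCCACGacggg

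The Hspa5 level was 9.9997, 10.5 and 26.7 FPKM in PND and 9.58, 14.3 and 20.8 FPKM in CON. PND replicate 3 and CON replicate 3 were high, and the groups overlapped in part. The means were 15.7 ± 9.52 FPKM (SD, n = 3) in PND and 14.9 ± 5.64 FPKM (SD, n = 3) in CON, while the log2 fold change was -0.0081 (SE 0.42). The 95% interval ran from 0.499-fold to 1.98-fold.

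Hspa5 rested on 303 to 1060 estimated fragments per mouse, and its highest mouse was 2.79 times its lowest. Its deviation from its own mean was -0.50, -0.43 and 0.91 (log2) in PND and -0.56, 0.02 and 0.55 in CON. For the 22 other genes listed for the endoplasmic reticulum and its stress response, the median deviation was 0.05, -0.07 and 0.06 in PND and -0.12, 0.21 and 0.11 in CON. It had the sign of Hspa5 in all mice but PND replicate 1. A median over 22 genes tends to vary less than a single gene, so the sizes cannot be compared. Among single genes of the list, the highest mouse was 5.08 times the lowest for Xbp1, 3.08 times for Edem1 and 1.14 times for Canx. Astrocyte markers, 5 genes with none at 0, also varied widely, with a summed level of 227, 310 and 337 FPKM in PND and 182, 355 and 478 FPKM in CON. At an unadjusted p below 0.05, 1 of the 5 was higher and 1 was lower in PND, against 3.13% of all genes. Their part in the Hspa5 spread was not tested.

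Dnajb1 encodes HSP40, a J-domain protein that brings substrates to HSP70 and stimulates its ATPase. It lies at chr8:83608193-83612653 on the plus strand (ENSMUSG00000005483). Neither of the 2 windows read for its RefSeq starts held the heat shock motifs searched. One of them, chr8:83608298-83608547, lies inside the GENCODE gene and overlaps a Dnajb1 exon. The other, chr8:83607925-83608174, overlaps an exon of Tecr. Its level was 9.89, 7.10 and 9.88 FPKM in PND and 5.66, 14.1 and 9.52 FPKM in CON. Both the lowest and the highest mouse were CON, and all 3 PND mice lay between them. For Dnajb1 the log2 fold change was -0.04 (SE 0.32), with a 95% interval from 0.577-fold to 1.63-fold.

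Dnajb1 was lowest in CON replicate 1 and highest in CON replicate 2, as were other measures of these libraries. GC-rich genes, the 1233 with the highest GC content among expressed genes, had a median deviation of 0.11, -0.30 and 0.37 (log2) in PND and -0.56, 0.49 and -0.03 in CON. After a correction for GC content, the range of Dnajb1 over the mice went from 1.30 to 0.865 (log2). Without Hspb1, which had few fragments, the same correction narrowed the range of 2 genes, Dnajb1 and Hspa8, and widened that of 7, among them the GC-rich Hspa1a (1.92 to 2.17) and Hspa1b (1.36 to 1.70). Activity-induced genes such as Fos and Arc, 9 genes with none at 0, summed to 56.3, 48.4 and 58.6 FPKM in PND and 41.9, 90.4 and 73.9 FPKM in CON, and were also lowest in CON replicate 1 and highest in CON replicate 2. The same held for the 5 excitatory neuron markers, with 205, 193 and 234 FPKM in PND and 182, 300 and 194 FPKM in CON, and for the 5 pericyte and smooth muscle markers, with 40.6, 35.0 and 39.4 FPKM in PND and 31.5, 44.4 and 39.1 FPKM in CON. Of these lists, 2 of 9 activity-induced genes, 1 of 5 excitatory neuron markers and 0 of 5 pericyte and smooth muscle markers were lower in PND at an unadjusted p below 0.05, against 3.13% of all genes in either direction. Other marker lists ran differently: inhibitory neuron markers (158 FPKM), striatum markers (38.6 FPKM) and choroid plexus markers (1.15 FPKM) were lowest in CON replicate 2, and oligodendrocyte markers were highest in CON replicate 1 (150.3 FPKM). The part of any of these measures in the spread of Dnajb1 was not tested beyond this correction.

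**Figure D3:**
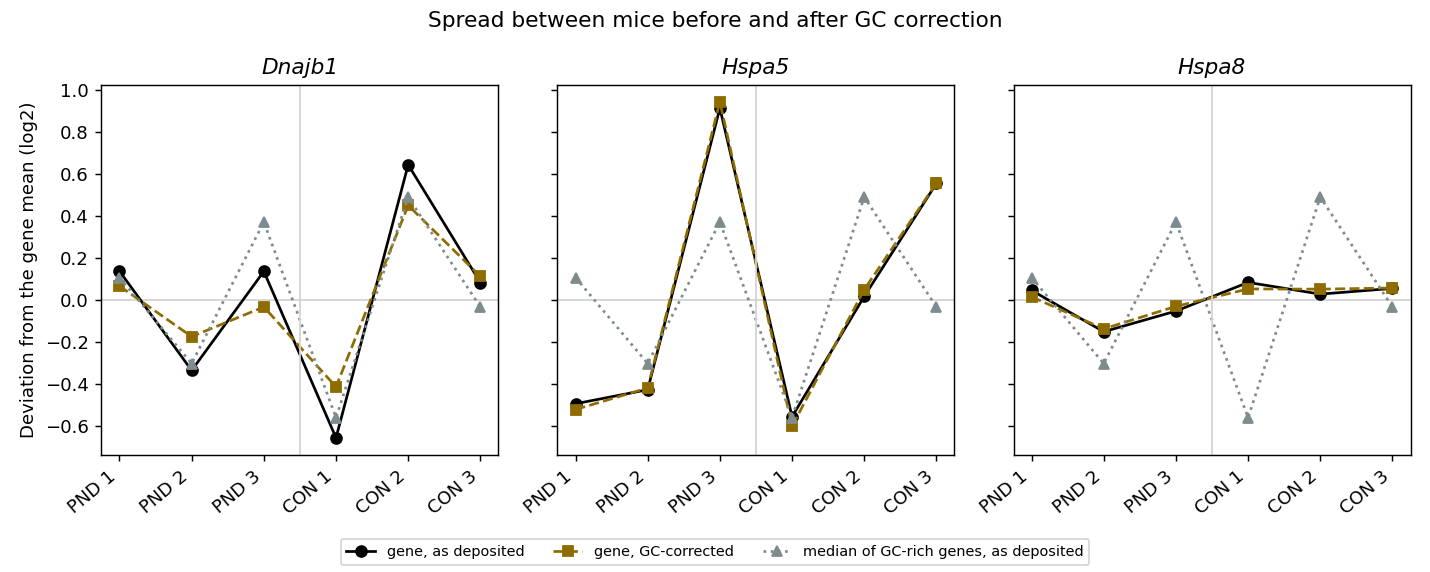
Deviation of Dnajb1, Hspa5 and Hspa8 from their own mean in each mouse (log2), as deposited (black) and after GC correction (brown), with the median of 1233 GC-rich genes as deposited (grey). The correction narrowed the range of Dnajb1 from 1.30 to 0.865, left that of Hspa5 at 1.47 and 1.55, and Hspa8 stayed within a range of 0.235.

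Hsph1 encodes HSP110, which exchanges the nucleotide of HSP70 and takes part in dissolving protein aggregates. It lies at chr5:149614287-149636376 on the minus strand (ENSMUSG00000029657). A tail-to-tail pair of heat shock units, TTCNNGAA, a form found in 2349 of 32817 windows (7.16%), is shown in capitals at chr5:149636351-149636380, minus strand. It lies within an Hsph1 exon of GENCODE and 47 to 54 or 26 to 33 bases before the RefSeq starts.
Hsph1: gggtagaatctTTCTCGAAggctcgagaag

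The Hsph1 level was 30.9, 29.6 and 27.2 FPKM in PND and 34.7, 30.8 and 35.0 FPKM in CON. PND replicate 1 and CON replicate 2 lay within 0.1 FPKM of each other, and this was the only overlap. The means were 29.2 ± 1.90 FPKM (SD, n = 3) in PND and 33.5 ± 2.32 FPKM (SD, n = 3) in CON. Hsph1 had the smallest p of the 10 genes, with a log2 fold change of -0.20 (SE 0.11) and a 95% interval from 0.734-fold to 1.04-fold. The ratio of Hspa8 to Hsph1 ranged from 3.36 to 4.02 over the 6 mice.

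Hsp90aa1 and Hsp90ab1 encode the inducible and the constitutive form of cytosolic HSP90, which matures kinases and steroid hormone receptors. Hsp90aa1 lies at chr12:110690605-110702728 on the minus strand (ENSMUSG00000021270) and Hsp90ab1 at chr17:45567775-45573271 on the minus strand (ENSMUSG00000023944). Hsp90aa1 had 122.1, 116.8 and 108.7 FPKM in PND and 117.0, 124.7 and 132.4 FPKM in CON. Hsp90ab1 had 140.5, 135.7 and 162.6 FPKM in PND and 136.8, 164.5 and 164.6 FPKM in CON. The groups overlapped for both genes, and in each mouse Hsp90ab1 was the higher, by 1.15 to 1.50 times.

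Hsp90aa1 had a log2 fold change of -0.11 (SE 0.10) and Hsp90ab1 one of -0.09 (SE 0.12). Their 95% intervals ran from 0.794-fold to 1.09-fold and from 0.776-fold to 1.14-fold, both inside a 2-fold change. For Hsp90aa1, 47.5% of the 100-base windows of the longest transcript also occur in transcripts of 3 other genes, and for Hsp90ab1 none do.

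Hspd1 encodes HSP60, which folds proteins in the mitochondrial matrix together with HSP10, the product of its neighbour Hspe1. Hspd1 lies at chr1:55077835-55088243 on the minus strand (ENSMUSG00000025980), and the genes start head to head. Between the Hspe1 start and one of the RefSeq starts of Hspd1 lies a pair of overlapping heat shock elements of 3 units, GAANNTTCNNGAA, a form that contains both 2-unit motifs and was found in 153 of 32817 windows (0.466%). It is shown in capitals at chr1:55088053-55088082, minus strand, within an Hspd1 exon of GENCODE.
Hspd1: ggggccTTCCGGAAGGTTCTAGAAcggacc

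The Hspd1 level was 69.0, 77.3 and 71.6 FPKM in PND and 71.2, 69.6 and 88.8 FPKM in CON. CON replicate 3 was the highest mouse, and the other 5 lay within 69.0 to 77.3 FPKM. Hspd1 had a log2 fold change of -0.07 (SE 0.12), with a 95% interval from 0.783-fold to 1.16-fold. Hspd1 and Hspe1 overlap on opposite strands, and whether counting used strand is not given in the sources used here. Of the windows of the longest Hspd1 transcript, 26.9% also occur in transcripts of 2 other genes.

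Hspb1 encodes the small heat shock protein HSP25 (HSP27 in humans), which holds unfolded proteins without using ATP. It lies at chr5:135887919-135889563 on the plus strand (ENSMUSG00000004951). Its upstream window held 2 head-to-head pairs of heat shock units, shown in capitals at chr5:135887786-135887845, plus strand, because no other window read for these genes held more than 1 such separate pair.
Hspb1: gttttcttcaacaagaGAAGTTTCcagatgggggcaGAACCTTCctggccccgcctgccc

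Hspb1 was listed at 0.123, 0.138 and 0.291 FPKM in PND and 0.291, 0.134 and 0.227 FPKM in CON. This is an estimated 1.12 to 2.81 fragments per mouse with the GENCODE exon length of 1031 bases. The values moved in steps that would be 2, 2 and 5 whole fragments in PND and 4, 2 and 3 in CON if the length used by the authors was longer. Either way the level rested on at most 5 fragments per mouse, so that no fold is given and a difference was not detectable at this depth. Of the windows of its longest transcript, 42.7% also occur in transcripts of 2 other genes.

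**Figure D4:**
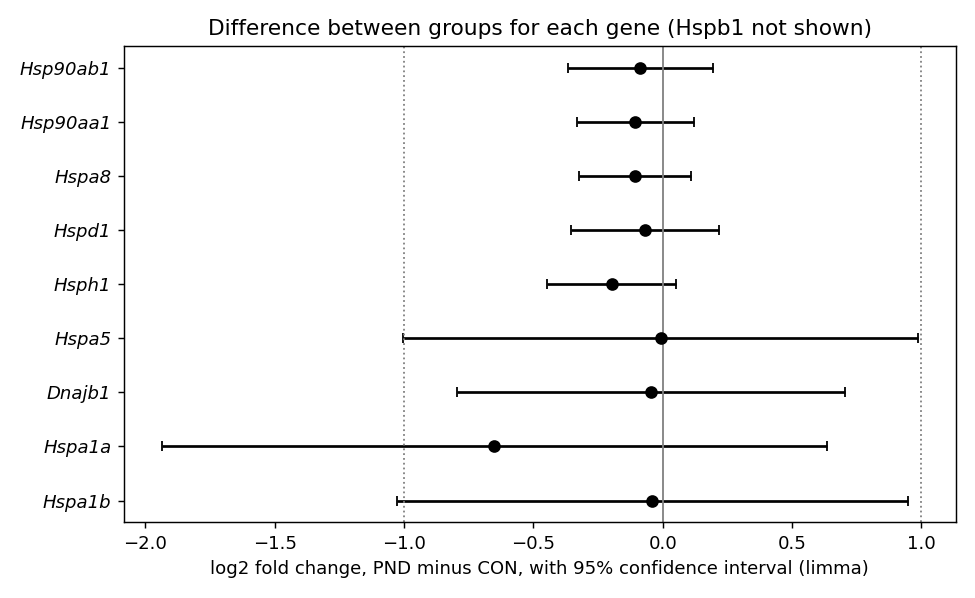
Log2 fold change, PND minus CON, with its 95% confidence interval from limma for the 9 genes other than Hspb1, the dotted lines marking a 2-fold change. Each interval includes 0; those of Hspa8, Hsp90aa1, Hsp90ab1, Hspd1 and Hsph1 are the narrowest, and those of Hspa1a, Hspa1b and Hspa5 reach a 2-fold change or come close to it.

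The spread between mice set these intervals. The median SD within a group was 0.28 (log2) for the 10 genes, against 0.32 for all tested genes and 0.245 for the 12387 genes that reached 1 FPKM on average. The 5 most abundant genes, Hsp90ab1, Hsp90aa1, Hspa8, Hspd1 and Hsph1, had an SD of 0.07 to 0.15, and the other 5 had an SD of 0.41 to 0.83, the largest for Hspa1a.

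The rest of the chaperone network was given by 10 lists of 114 other genes, of which 110 were in the data and 109 were tested. Of these, 1 was higher and 2 were lower in PND at an unadjusted p below 0.05 (2.75% of 109, against 3.13% of all genes), and none passed the study's cut-off or an adjusted p of 0.05, with a smallest adjusted p of 0.9999. Their median log2 fold change was -0.02. The 3 genes are Fkbp5, Pdia3 and Pfdn4. The count rested on single mice: it was 1 without PND replicate 1 or CON replicate 3, 6 of 108 without CON replicate 2 (5.56%) and 7 of 109 without CON replicate 1 (6.42%), and the share of all genes in these fits was 2.24%, 2.61%, 5.28% and 4.59% in the same order.

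Fkbp5 encodes a co-chaperone of HSP90 that acts on the glucocorticoid receptor and is itself induced by glucocorticoids. Its level was 4.35, 3.62 and 3.58 FPKM in PND and 2.16, 2.43 and 2.17 FPKM in CON. Each PND mouse was above each CON mouse. The log2 fold change of Fkbp5 was 0.74 (SE 0.17), below 2-fold. In limma its unadjusted p was 0.0027, and 0.0021 to 0.0167 over all 16 alternatives tried, while the p adjusted over all genes was 0.9999. The summed level of the choroid plexus markers, given above, also lay higher in PND, although only 2 of the 5 were tested and 1 of these was higher at an unadjusted p below 0.05. Their part in the Fkbp5 difference was not tested.

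Pdia3 encodes a disulfide isomerase that works with calnexin and calreticulin in the endoplasmic reticulum. Its level was 46.1, 46.8 and 47.5 FPKM in PND and 55.8, 54.2 and 56.7 FPKM in CON, and the groups did not overlap. For Pdia3 the log2 fold change was -0.25 (SE 0.09). Its unadjusted p in limma was 0.0228 (0.9999 when adjusted), and 0.0740 without PND replicate 1, 0.0590 without PND replicate 2 and 0.0704 without CON replicate 3. A replicate block gave 0.0794, the fit without the intensity trend gave 0.105, and the block together with the GC correction gave 0.0428. Pfdn4 encodes a subunit of prefoldin, which hands actin and tubulin to the TRiC chaperonin. It had 1.31, 1.57 and 1.66 FPKM in PND and 2.30, 2.15 and 2.00 FPKM in CON, again without overlap. Its log2 fold change was -0.49 (SE 0.19). The unadjusted p of Pfdn4 in limma was 0.0389 (0.9999 when adjusted), and 0.0539 to 0.131 when each mouse was left out in turn. With a replicate block it was 0.103, and with that block and the GC correction 0.0887.

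In 7 of the 109 genes the groups did not overlap (6.42%, against 7.66% of all genes). Besides the 3 above these were Hspb6, with higher values in PND, and Sil1, Dnaja1 and Vbp1, with lower values in PND. These 4 are named after their values were seen, none had an unadjusted p below 0.05, and Hspb6 stood at only 0.144 to 0.2996 FPKM. Against a median of 0.01 over all genes, the medians of the 10 lists ran from -0.11 to 0.43. The 8 subunits of the TRiC chaperonin, which folds actin and tubulin, had a median log2 fold change of -0.03 and a range from -0.11 to 0.07, and 0 passed the test. The 9 other HSP70 and HSP110 genes had a median of -0.03, the 18 HSP90 and co-chaperone genes -0.02, the 18 J-domain genes -0.02, and the 22 endoplasmic reticulum genes -0.03.

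Among the smaller lists the median was -0.08 for 10 nucleotide exchange factors, -0.05 for 6 prefoldin subunits, and 0.11 for 9 mitochondrial chaperones and proteases. Heat shock factors and their regulators had a median of -0.11 over 4 genes tested, and 0 of 4 passed. The 5 small heat shock proteins tested had a median of 0.43, with a range from -0.58 to 0.76, and 0 of 5 passed. That median is the value of the single gene Hspb11, and 2 of the 5 genes were below 0. Cryab, the most abundant of them (12.2 FPKM), was at -0.58. Hspb3 and Hspb6 rested on few fragments, an estimated 2.00 to 8.99 and 2.48 to 6.46 per mouse.

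**Figure D5:**
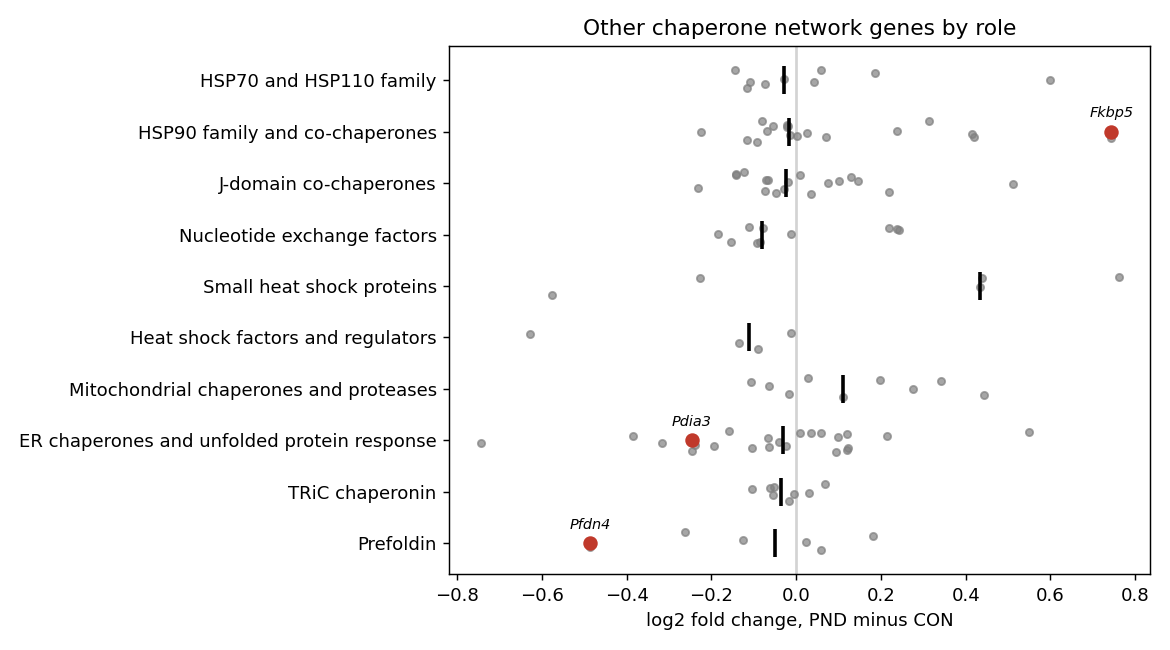
Log2 fold change, PND minus CON, of the 109 other chaperone genes tested, by role, with each gene as a grey point, the list median as a black bar and the 3 genes with an unadjusted p below 0.05 in red. Of the 10 medians 9 lie between -0.11 and 0.11. That of the 5 small heat shock proteins is at 0.43, with genes from -0.58 to 0.76 and 2 of the 5 below 0. Fkbp5 is at 0.74, Pdia3 at -0.25 and Pfdn4 at -0.49.

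The network genes whose profile over the 6 mice was most like the mean profile of Hspa1a and Hspa1b were Hsf1, Dnajc6, Dnajb12, Edem1 and Bag5, with a Pearson r of 0.88, 0.79, 0.75, 0.71 and 0.66 among 102 genes ranked. Hspa1a and Hspa1b themselves had a Pearson r of -0.27 over the 6 mice, so their mean is not a profile that both genes share. The ranking is a description of 6 libraries that share their depth and base composition with the genes compared. For Hsf1, which encodes heat shock factor 1, the level was 3.98, 3.82 and 3.91 FPKM in PND and 3.90, 5.35 and 3.79 FPKM in CON. Hsf1 was highest in CON replicate 2, the mouse with the highest pair sum, and by ranks its likeness was absent (Spearman rho 0.09). For the other genes named, rho was 0.26 for Dnajc6 and Dnajb12, 0.54 for Edem1 and 0.37 for Bag5. The correlations were not recomputed without CON replicate 2.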

How the data were processed

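The authors depleted the RNA of ribosomal RNA and sequenced it on an Illumina instrument. Reads passed Seqtk and were aligned with HISAT2. StringTie fragments per gene, after TMM scaling between libraries, were turned by the authors into FPKM, which were deposited as 1 column per mouse. The submitters' processing notes also name Bowtie 0.12.2 and the builds mm8 and mm9, with no role. In the paper Bowtie was used for the miRNA reads. The annotation and the use of strand are not given in the sources used here. FPKM are not counts, so no count test was run.

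Of 21006 identifiers, 20866 had a symbol. GENCODE M21 (GRCm38) gave coordinates, exon lengths and GC, and RefSeq (GRCm38.p6) the upstream sequences, read on both strands for the motifs. The promoter table gave windows for 7 of the 10 genes, and none was used for Hspa8, Hsp90aa1 and Hsp90ab1. Fragments are estimates from the steps in low FPKM values: 41.6% to 44.8% of values between 0.5 and 20.5 fragments lay within 0.05 of a whole number, so the exon lengths used may differ from the authors' for many genes.

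Groups came from the treatment label. The test between PND and CON was limma 3.58.1 under R 4.3.3 on log2(FPKM + 0.1), two-sided, with lmFit and a trended eBayes. Genes entered it if their mean reached 0.1 FPKM, with Benjamini-Hochberg adjustment over all of them. This scale understates the change of low genes. The fit was tested on simulated data. The GC correction was a loess curve (span 0.3) of each library's deviations on GC content. Named were the 10 genes, at most 3 genes per network list with p below 0.05, and the 5 most similar to the Hspa1a and Hspa1b profile. Outside this rule, Hspe1, Hspb3, Hspb6, Hspb11, Cryab, Xbp1, Canx, Sil1, Dnaja1 and Vbp1 were named after their values were seen. The genes and lists were chosen with earlier results of these data known. Alternatives were other pseudocounts, filters and scalings, GC correction, a replicate block, no trend and leaving out each mouse.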

Additional observations from a re-analysis of the deposited data

How the results depend on the processing

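In 16 alternatives the number of the 10 genes with an unadjusted p below 0.05 stayed at 0, and of 157 alternative values of single genes 10 changed sign and none passed the test (smallest p 0.0548, Hsph1 without CON replicate 2). Leaving out each mouse gave -0.46 to 0.21 for Hspa1b, -0.47 to 0.27 for Hspa5, -0.38 to 0.27 for Dnajb1 and -0.13 to 0.043 for Hspd1 (log2 fold change), and quantile normalization gave 0.0084 for Hspa5. The sum of Hspa1a and Hspa1b went from -0.61 without CON replicate 1 to -0.12 without CON replicate 2, and Hspa1a from -1.12 to -0.29 without the same mice. At a mean of at least 1 FPKM, Hspa1a, Hspa1b and Hspb1 were not tested. The number of network genes with p below 0.05, 3 in the reported fit, was 1 without PND replicate 1 or CON replicate 3, 6 without CON replicate 2 and 7 without CON replicate 1, while the share of all genes went from 3.13% to 2.24%, 2.61%, 5.28% and 4.59% in these fits. The cause was not tested.

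Same-numbered mice share only a number: their deviations from the group means had correlations of -0.05, -0.45 and 0.03. With the number as a replicate block, 0 of the 10 genes and 2 network genes (1.83%, against 1.99% of all genes) had p below 0.05 and the pair sum was -0.41, a value that a balanced block cannot change. Its exact permutation p was 0.25, the smallest that 8 sign changes allow. Depth limits Hspb1, and counting error is large for Hspa1a and Hspa1b.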

Other observations

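The mitochondrial partners Hspd1 and Hspe1, whose products form the HSP60 and HSP10 chaperonin, did not keep a fixed ratio of levels. Hspe1 was chosen here after its values were seen. Its level was 14.4, 19.4 and 16.4 FPKM in PND and 18.3, 8.97 and 13.5 FPKM in CON. CON replicate 2 was the lowest for Hspe1 and among the lower mice for Hspd1. The ratio of Hspd1 to Hspe1 was 4.80, 3.995 and 4.38 in PND and 3.88, 7.77 and 6.57 in CON, with means of 4.39 ± 0.403 (SD, n = 3) and 6.07 ± 1.99 (SD, n = 3). The groups overlapped through CON replicate 1, and the difference was not tested.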
